A study of Mus musculus with 22 samples.

Results

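Killer cell lectin-like receptors and the natural cytotoxicity receptor NKp46 were examined through 10 genes of the 46882 listed in the table of normalized counts. The genes were Klra4, Klrb1b, Klrb1c, Klrc1, Klrc2, Klrd1, Klre1, Klrg1 and Klrk1 of the lectin-like family, and Ncr1, which encodes NKp46. They were a chosen list. Klra4 was selected on its high normalized counts in MC38 cells and Klrc1 on its normalized counts in wild-type tumors, so those values are given as descriptions without a test. The libraries were 2 of MC38 cells of day 0, 2 of normal skin of wild-type C57BL/6N mice of day 23, and 12 of subcutaneous MC38 tumors. Of the tumors, 3 each were from wild-type C57BL/6N mice at day 23 and day 46, and 3 each from RAG1-/- mice of the strain B6.129S7-Rag1tm1Mom/J at day 13 and day 23. Mice of every group were 8 to 12 weeks old, the injected ones were female, and each tumor library was made from a piece of 1 excised tumor. MC38 is a mouse colon carcinoma line of C57BL/6 origin, and mice without RAG1 cannot assemble antigen receptor genes and lack mature T and B cells, but keep natural killer (NK) cells.

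NK cells read their targets through pairs of activating and inhibitory receptors that are encoded side by side in the NK gene complex. Inhibitory receptors such as NKG2A carry a motif in the cytoplasm that recruits phosphatases when the receptor meets a class I molecule or a related self ligand. Activating receptors such as NKG2D, NKp46 and Ly49D have no signaling motif of their own and rely on adaptor chains such as DAP10, DAP12 and the Fc receptor gamma chain. CD94, NKG2A, NKG2D and KLRG1 are also found on activated CD8+ T cells, so these genes are not particular to NK cells. RNA of a whole tumor piece cannot tell fewer receptor-bearing cells apart from less receptor RNA per cell.

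In GRCm38, 9 of the 10 genes lie on chromosome 6, and 8 of them stand between positions 128778485 and 130067271. Klrb1c (128778485 to 128789215) and Klrb1b (128813706 to 128826331) open this stretch, followed by Klre1 (129577905 to 129585827), Klrd1 (129591782 to 129598775), Klrk1 (129610323 to 129623864), Klrc2 (129647496 to 129660689), Klrc1 (129666015 to 129678973) and Klra4 (130043731 to 130067271). Klrg1 lies apart on the same chromosome (122270596 to 122282882), and Ncr1 lies on chromosome 7 (4337724 to 4345164). Klre1, Klrd1 and Ncr1 are on the plus strand and the others on the minus strand. The reads come from the 3′ ends of transcripts, so the last 500 bases of each annotated transcript were searched for stretches of 50 bases that another gene also holds. Klrc1 shared 43.5% of them, mostly with Klrc2 (39.5%), and Klrc2 shared 15.2%, so reads of these neighbours can be exchanged and their levels are uncertain. Klrb1b shared 22.4% and Klrb1c 17.8%, mostly with the overlapping gene model Gm44511, and Klra4 shared 4.66% with Klra1. The other 5 genes shared 0%.

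RefSeq promoters (build GRCm38.p6, 250 bases before to 50 bases after the transcript start) matched 8 of the 10 genes, without Klrd1 and Klrg1. They are printed for the gene read in MC38 cells and for the pair of genes with the largest differences between the tumor groups, 5′ to 3′ on the gene's strand, all of it the minus strand, with motif matches in capitals:
Klra4, chr6:130067222-130067521: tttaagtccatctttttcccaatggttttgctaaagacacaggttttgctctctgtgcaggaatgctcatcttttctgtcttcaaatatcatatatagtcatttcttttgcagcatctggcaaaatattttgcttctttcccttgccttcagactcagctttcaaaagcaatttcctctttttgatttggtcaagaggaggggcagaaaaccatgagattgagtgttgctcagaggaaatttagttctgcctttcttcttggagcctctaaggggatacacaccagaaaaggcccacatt
Klrc1, chr6:129678924-129679223: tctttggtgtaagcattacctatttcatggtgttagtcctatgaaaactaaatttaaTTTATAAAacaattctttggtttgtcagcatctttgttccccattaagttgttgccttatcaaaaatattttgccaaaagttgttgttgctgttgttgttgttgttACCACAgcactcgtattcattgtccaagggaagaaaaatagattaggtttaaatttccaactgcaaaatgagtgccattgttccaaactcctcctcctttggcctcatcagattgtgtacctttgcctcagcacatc
Klrk1, chr6:129623815-129624114: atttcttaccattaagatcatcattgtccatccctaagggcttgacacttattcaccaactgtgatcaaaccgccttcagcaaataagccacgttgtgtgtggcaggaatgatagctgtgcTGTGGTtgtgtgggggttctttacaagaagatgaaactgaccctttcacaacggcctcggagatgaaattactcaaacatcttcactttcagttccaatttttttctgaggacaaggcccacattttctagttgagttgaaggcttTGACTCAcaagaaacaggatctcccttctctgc

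The search covered both strands. The motif of the RUNX factors was TGTGGT. The motif of the AP-1 factors was TGANTCA, and that of the T-box factors was GGTGTGA. The box bound by the general transcription machinery was TATAAA, and the interferon-stimulated response element was searched as well. TGTGGT, or ACCACA on the other strand, stood in 8 of the 12 promoters of these genes, and 16.8% of all 32851 promoters of the table hold it. Several of the 12 are overlapping windows of 1 gene, and 6 of the 8 genes had a match. TGANTCA stood in 3 of the 12 promoters (of Klrc2 and Klrk1; 7.81% of all promoters) and TATAAA in 2 of the 12 (of Klrc1 and Klrc2; 13.6%), where the matches of Klrc1 overlap each other. GGTGTGA (3.98% of all promoters) and the response element (3.44%) stood in 0 of the 12. The Klra4 window held 0 matches, which says only that these letters are not in it.

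Libraries held 5589151 to 26134241 reads on genes, and 3 reads, taken as the floor, were worth 1.33 to 6.38 normalized counts. The targeted gene, Rag1, had 1 to 12 reads in each of the 6 libraries labelled RAG1-/- and 1 read in 1 of the 6 wild-type libraries. Reads of the 3′ end check a deletion only if it covers that end, and whether the allele keeps this sequence is not given in the sources used here, so Rag1 does not check the labels and the genotype is taken from them. The lymphocyte genes ran as labelled, with 0 reads of Cd3e in all 6 tumors labelled RAG1-/- and Igkc higher in wild-type tumors by 6.80 on the log2 scale (adjusted p = 7.6e-07 from limma). The labelled colon carcinoma cells had 10.3 and 10.8 summed normalized counts over 9 epithelial genes (Epcam, Cdh1, Krt8, Krt18, Krt19, Krt20, Cdx2, Vil1 and Lgals4), of which 4 had 0 reads in both libraries. Skin libraries differed from the tumors in sex-linked genes, with 1803 and 1919 normalized counts of the Y-linked gene Ddx3y and 0 of Xist, against at most 1.07 of Ddx3y and 105 to 352 of Xist in the 12 tumors, so tissue and sex cannot be told apart. Replicate 2 of skin also carried genes of MC38 cells. Of the genes with at least 100 normalized counts in both MC38 libraries, 35 had 0 reads in replicate 1 of skin, and all 35 were read in replicate 2, at a median of 5.69% of their MC38 level. This set was drawn up after the values were seen. Replicate 1 of wild-type tumors of day 46 was low in T cell genes, with 91.9 summed normalized counts over 12 T cell markers where the other 5 wild-type tumors had 164 to 391.

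MC38 cells had 0 reads for 8 of the 10 genes in both libraries. The exceptions were Klra4 and 1 read of Klrc2 in replicate 2. Klra4 encodes Ly49D, an activating receptor that signals through DAP12. It had 3320 and 3846 normalized counts in the MC38 libraries, from 3880 and 3934 reads. In skin it had 0 and 204 normalized counts, and the 204 in replicate 2 were 5.69% of the MC38 mean, Klra4 being itself the gene at the median of those 35. In tumors labelled RAG1-/- Klra4 had 5143, 5428 and 5621 normalized counts at day 13 and 7512, 8035 and 4788 at day 23. In wild-type tumors it had 3966, 7375 and 4440 at day 23 and 5966, 4470 and 2563 at day 46. Each of the 12 tumors thus held Klra4 at the order of the MC38 cells, with 1 tumor, replicate 3 of day 46, below both MC38 libraries.

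Klra4 gave no call between the tumor groups. Its mean was 4797 ± 1669 normalized counts in wild-type tumors and 6088 ± 1346 in tumors labelled RAG1-/- (SD, n = 6 each), and the ranges overlapped. The difference, wild-type minus labelled RAG1-/-, on the scale log2(normalized count + 1) was −0.39 (standard error 0.20, adjusted p = 0.487 from limma). At day 23 it was −0.38 (standard error 0.28, adjusted p = 0.650 from limma).

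Of 20 other lectin-like receptor genes in the table, 15 had 0 reads in both MC38 libraries. Klra2, another gene of the Ly49 group, had 129 and 109 normalized counts in MC38 cells, 13.4 and 73.9 in skin and 236 to 475 in the tumors. Klra6 had 33.4 and 27.4 normalized counts in MC38 cells, 0 in both skin libraries and 12.7 to 56.3 in the tumors. Klra1, which shares 3′ bases with Klra4, had 3.42 and 4.89 normalized counts in MC38 cells. The adaptor of Ly49D, Tyrobp (DAP12), had 0 reads in both MC38 libraries and 1809 to 3700 normalized counts in the tumors. Eomes, a T-box factor of NK cells, made up 190 of the 194 and 235 of the 245 summed normalized counts that 17 NK cell markers had in the MC38 libraries, each of which had 0 reads for 13 of the 17.

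**Figure D1:**
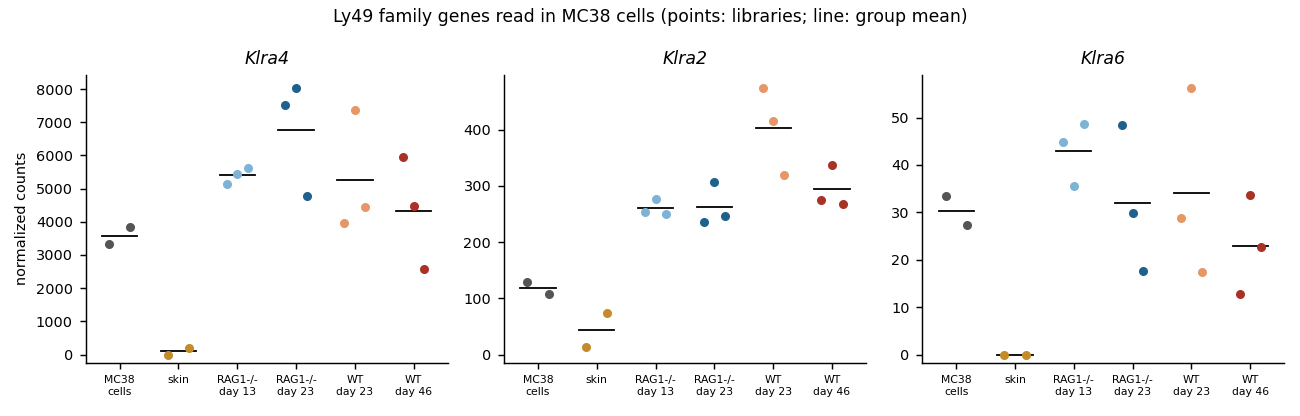
Normalized counts (linear y axis) of Klra4, Klra2 and Klra6 in each of the 16 libraries by group, with points for libraries and a line for the group mean. Klra4 sits between 2563 and 8035 in the tumors and at 3320 and 3846 in MC38 cells, against 0 and 204 in skin.

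The other receptors were read in tumors and skin but not in MC38 cells. Klrb1b, Klrd1, Klre1, Klrg1 and Klrk1 had 0 reads in MC38 cells and passed the filter through the tumors, so higher in tumors was the only direction they could take. Of these 5, limma called 3 in tumors labelled RAG1-/-, Klrb1b, Klrd1 and Klrk1, and 4 in wild-type tumors, the same with Klre1. Over all 14708 genes tested, 15.8% and 18.3% were called higher, and the counts of members are given as a description beside them. The adjusted p of these calls from limma is also a description, since their direction was fixed. It lay between 9.29e-07 and 0.00382 in tumors labelled RAG1-/-, and between 4.31e-08 and 0.0200 in wild-type tumors. With a pseudocount of 5, Klrk1 in tumors labelled RAG1-/- (adjusted p = 0.0739 from limma) and Klre1 in wild-type tumors (0.0607) were lost. Since MC38 cells had no reads, the folds are lower bounds against a floor of 3 reads per library, 2.75 normalized counts on average. Klrb1b was at least 41.2-fold higher in wild-type tumors and at least 15.1-fold higher in tumors labelled RAG1-/-. Klrd1 was at least 11.4-fold and 7.84-fold higher, Klrk1 at least 11.02-fold and 2.92-fold, Klre1 at least 2.77-fold and 2.43-fold, and Klrg1 at least 3.13-fold and 3.01-fold. Without replicate 1 of wild-type day 23 the wild-type bound of Klrk1 was 7.11-fold, and without replicate 2 of wild-type day 46 that of Klrg1 was 1.70-fold. Klre1 in tumors labelled RAG1-/- (adjusted p = 0.0598 from limma) and Klrg1 in either genotype (adjusted p = 0.0637 and 0.0779) did not pass. These calls of low genes turned on single libraries. Without replicate 2 of day 13, Klre1 and Klrg1 passed in tumors labelled RAG1-/- (adjusted p = 0.0455 and 0.0181 from limma), which gave 5 calls, and Klre1 passed without replicate 1 of day 23 (0.00574). In wild-type tumors Klre1 was lost without either MC38 library (adjusted p = 0.123 and 0.128 from limma), and Klrg1 passed without replicate 1 of day 46 (0.00882). Rescaling the libraries to the same upper quartile moved the share of higher genes among all genes called from 67.6% to 55.3% in tumors labelled RAG1-/- and from 65.5% to 50.2% in wild-type tumors, and the median of all genes by −0.11 and −0.14, and the same receptors were called.

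The CD94 and NKG2 genes were compared between the genotypes, to ask how the receptors stood when the host lacks T and B cells. Klrc1 encodes NKG2A, the inhibitory partner of CD94, which binds the class I-like molecule Qa-1. It had 46.5, 35.0 and 22.2 normalized counts at day 23 in wild-type hosts and 7.82, 28.9 and 17.0 at day 46. The tumors labelled RAG1-/- had 2.14, 4.45 and 4.76 at day 13 and 0, 0 and 4.86 at day 23. All 6 wild-type tumors stood above all 6 tumors labelled RAG1-/-, as 0.651% of the 14746 genes tested did, and this is the difference for which the gene was chosen. The log2 difference was 3.05 (standard error 0.53) over both days and 4.24 (standard error 0.75) at day 23. Over both days, wild-type tumors of day 23 and day 46 were set against tumors labelled RAG1-/- of day 13 and day 23. In every value over both days, and in every comparison of 6 against 6 tumors, genotype and day thus cannot be told apart. Only the day 23 values compare the genotypes on the same day. The lowest wild-type tumor, replicate 1 of day 46, stood at 7.82 against 4.86 in the highest tumor labelled RAG1-/-, from 8 and 11 reads.

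Klrc2 encodes NKG2C, the activating partner of CD94. It had 0.738, 4.26 and 4.75 normalized counts at day 23 in wild-type hosts and 0, 5.37 and 3.14 at day 46. In tumors labelled RAG1-/- it had 2.14, 0 and 1.91 at day 13 and 0, 0 and 0.442 at day 23. With 22 reads in all in the 6 wild-type tumors and 5 in the 6 tumors labelled RAG1-/-, its mean of 3.04 ± 2.21 against 0.748 ± 1.00 (SD, n = 6 each) was not distinguishable (two-sided exact permutation test, p = 0.0693, where the smallest possible is 0.00216). Without replicate 1 of wild-type day 46, the lone wild-type tumor at 0, the exact p was 0.0173.

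Klrd1 encodes CD94, the shared chain of both. It had 62.0, 34.1 and 38.0 normalized counts at day 23 in wild-type hosts and 5.86, 22.2 and 25.7 at day 46. The tumors labelled RAG1-/- had 31.0, 8.90 and 20.01 at day 13 and 9.16, 29.8 and 30.5 at day 23. At day 23 the 3 wild-type tumors stood above the 3 others, while of the wild-type tumors of day 46, replicate 1 lay below all tumors labelled RAG1-/- and the others within their range. The log2 difference, wild-type minus labelled RAG1-/-, was 1.04 at day 23 (standard error 0.62, adjusted p = 0.566 from limma) and 0.41 over both days (standard error 0.44, adjusted p = 0.781).

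Klrk1 encodes NKG2D, the activating receptor for the stress-induced ligands of the RAE-1, H60 and MULT1 families. It had 84.1, 17.9 and 17.4 normalized counts at day 23 in wild-type hosts and 13.7, 25.5 and 23.2 at day 46. In tumors labelled RAG1-/- it had 16.05, 6.67 and 13.3 at day 13 and 1.31, 6.38 and 4.42 at day 23. Only the lowest wild-type tumor, replicate 1 of day 46, fell within the range of the tumors labelled RAG1-/-. Klrk1 had the largest log2 difference among the members tested, 2.78 at day 23 (standard error 0.66, adjusted p = 0.108 from limma) and 1.78 over both days (standard error 0.47, adjusted p = 0.124). Neither passed the threshold. DESeq2 on the recovered reads passed both (adjusted p = 0.00562 and 0.0112), and edgeR passed neither. A two-sided exact permutation test over both days gave p = 0.00433, unadjusted (n = 6 each, smallest possible 0.00216). Without replicate 1 of wild-type day 23 the wild-type mean fell from 30.3 to 19.6 normalized counts, and the log2 difference over both days was 1.41 (adjusted p = 0.240 from limma).

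The NKR-P1 genes were Klrb1b and Klrb1c. Klrb1b encodes an inhibitory NKR-P1 receptor whose ligand is Clr-b, the product of Clec2d. It had 141, 188 and 71.3 normalized counts at day 23 in wild-type hosts and 28.3, 120 and 132 at day 46. Those labelled RAG1-/- had 26.7, 64.5 and 35.2 at day 13 and 36.7, 23.4 and 62.3 at day 23. Of the 6 wild-type tumors 5 stood above all tumors labelled RAG1-/-, and replicate 1 of day 46 stood near their lowest. The log2 difference was 1.68 at day 23 (standard error 0.56, adjusted p = 0.258 from limma) and 1.31 over both days (standard error 0.40, adjusted p = 0.190). Without replicate 1 of day 46 the difference over both days was 1.67 and passed (adjusted p = 0.0267 from limma). DESeq2 on all libraries passed it over both days (adjusted p = 0.0166) and not at day 23 (0.0846). A two-sided exact permutation test over both days gave p = 0.0260, unadjusted (n = 6 each).

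Klrb1c encodes NK1.1, the activating NKR-P1 receptor by which NK cells of this strain are stained. It had 0 to 8.06 normalized counts in wild-type tumors, with a median of 3.17, and 0 to 13.1 in tumors labelled RAG1-/-, with a median of 5.67. The reads numbered 27 and 43 in all, and the groups were not distinguishable (two-sided exact permutation test, n = 6 each, p = 0.400).

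Ncr1, Klre1 and Klrg1 were read at low levels. Ncr1 encodes NKp46, an activating receptor of NK cells and innate lymphoid cells. It had 0, 3.41 and 0 normalized counts at day 23 in wild-type hosts and 0, 2.01 and 1.88 at day 46. Those labelled RAG1-/- had 5.35, 4.45 and 8.57 at day 13 and 0, 0 and 6.63 at day 23. With 10 reads in wild-type tumors and 33 in tumors labelled RAG1-/-, the groups overlapped (two-sided exact permutation test, n = 6 each, p = 0.199). Klre1 encodes NKRE1, a lectin-like receptor that pairs with the KLRI chains, and had 1.95 to 9.59 normalized counts in wild-type tumors and 0 to 15.0 in the others. Its log2 difference over both days was 0.53 (standard error 0.65, adjusted p = 0.813 from limma), and −0.04 without replicate 1 of day 23 labelled RAG1-/-. Klrg1 encodes an inhibitory receptor for cadherins that marks antigen-experienced lymphocytes. It had 0 to 28.2 normalized counts in wild-type tumors and 0 to 13.3 in the others, with a log2 difference of −0.22 (standard error 0.77, adjusted p = 0.948 from limma). The direction of Klrg1 turned without replicate 1 of wild-type day 46 (0.45) and without replicate 1 of day 13 labelled RAG1-/- (0.16).

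**Figure D2:**
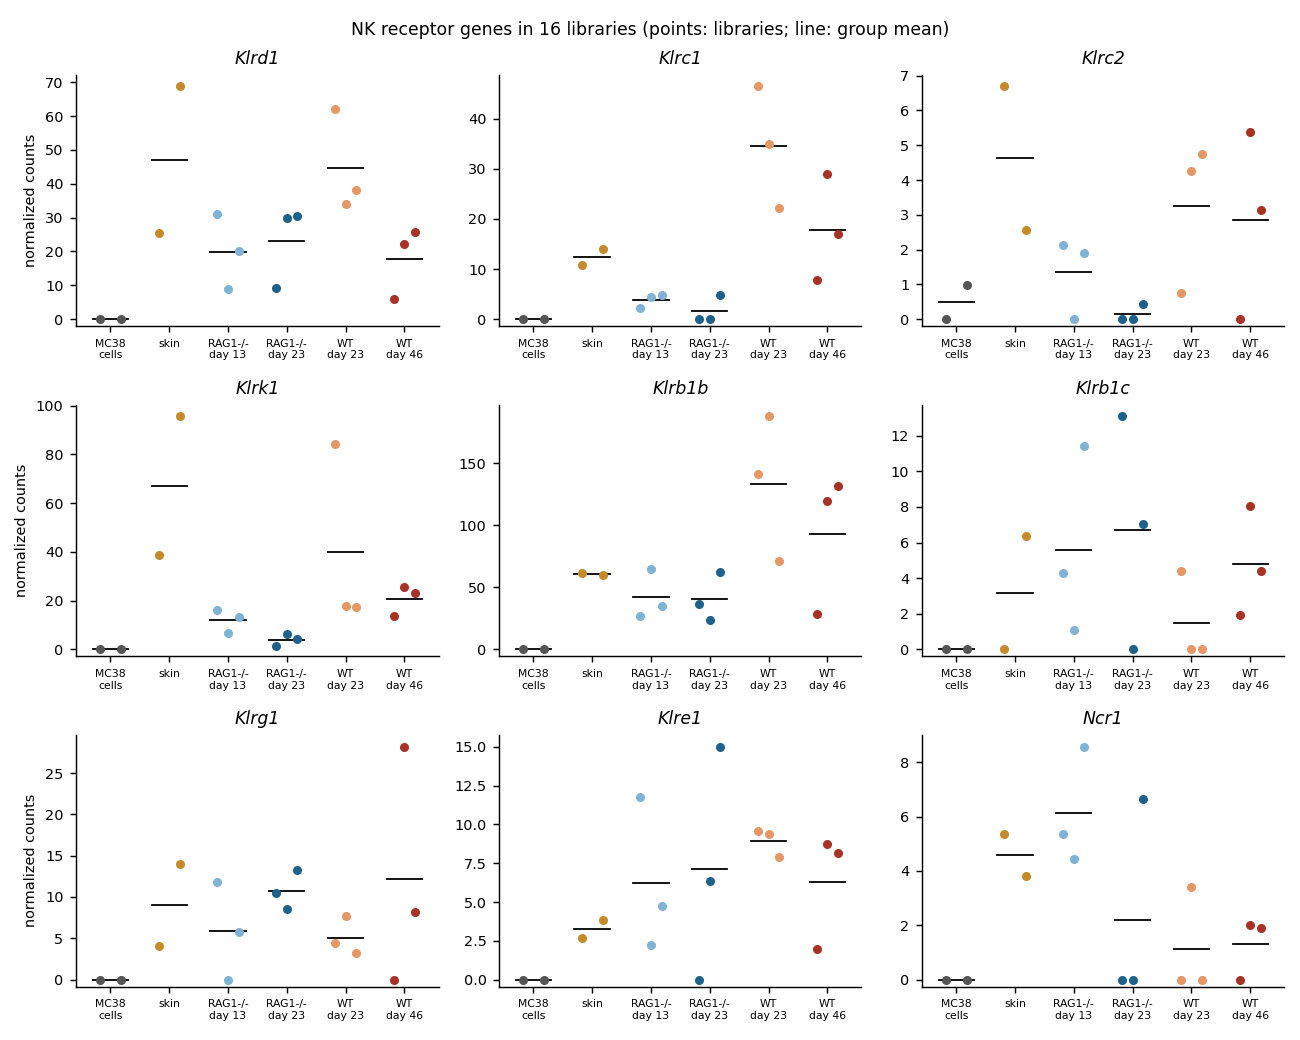
Normalized counts (linear y axes, each with its own range) of the 9 receptor genes other than Klra4 in each of the 16 libraries by group, with points for libraries and a line for the group mean. MC38 cells lie at 0 but for 0.978 of Klrc2, and the 6 wild-type tumors lie above the 6 tumors labelled RAG1-/- for Klrc1 only.

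Over the list, 7 of the 10 genes passed the filter of a mean of at least 5 normalized counts in the tumors, and Klrb1c, Klrc2 and Ncr1 did not. Of the 6 that passed beside Klrc1, limma called 0 between the genotypes at day 23, where 0.278% of the 14746 genes tested were called, and 0 over both days, where 0.712% were. At an unadjusted p under 0.05 there were 2 of the 6 in each, Klrb1b and Klrk1, against 11.2% and 11.4% of all genes tested. EdgeR called 0 in both comparisons, and DESeq2 called 1 at day 23 and 2 over both days. The median log2 difference of these 6 genes was 1.03 at day 23 and 0.47 over both days, against 0.01 over all genes tested. At day 23 all 3 wild-type tumors stood above all 3 tumors labelled RAG1-/- for Klrb1b, Klrd1 and Klrk1 as well as Klrc1. This order held for 8.5% of the genes tested. Klrc2, under the filter and so outside that share, had the same order. The order was the opposite for Klrg1, as for 7.62%. In 6 against 6 tumors, 0.332% of genes had every tumor labelled RAG1-/- above every wild-type tumor, with none of the 10 among them. An exact permutation test of 3 against 3 tumors cannot go below p = 0.1. Among the 0.651% of genes for which the 6 wild-type tumors stood above the others was Klrc1 and no other of the 10.

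**Figure D3:**
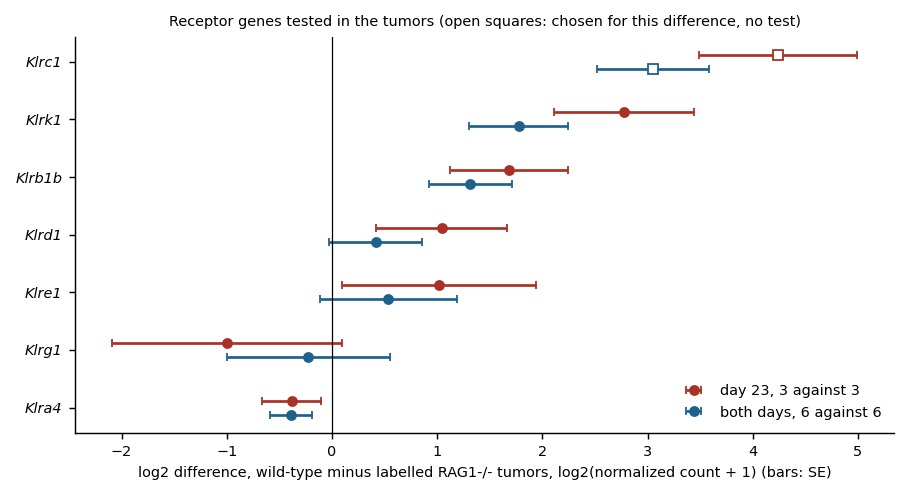
Log2 differences, wild-type minus labelled RAG1-/- tumors, on log2(normalized count + 1) (x axis) with standard errors, for the 7 genes that passed the filter, at day 23 and over both days. Over both days the genotypes also differ in day. Open squares mark Klrc1, chosen for this difference and shown as a description. Klrk1 (2.78 and 1.78) and Klrb1b (1.68 and 1.31) follow it, and limma called no tested gene.

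T cell markers moved with the same comparison. Over both days 6 of 9 tested T cell markers were called higher in wild-type tumors, with a median log2 difference of 3.69 over the 9, where 0.57% of all genes tested were called higher. At day 23 limma called 1 of the 9, Cd8a (log2 difference 5.21, adjusted p = 0.00994), where 0.278% of genes were called. The median log2 difference of the 9 was then 3.56. Their summed level over 12 genes was 91.9 to 391 normalized counts in wild-type tumors and 7.78 to 35.2 in tumors labelled RAG1-/-, in which 4 of the 12 genes, Cd3e among them, had 0 reads throughout. NK cell markers gave 0 calls of 9 tested at either comparison. Their median log2 difference was 1.31 at day 23 and 0.85 over both days. Their summed level over 17 genes was 227 to 628 normalized counts in wild-type tumors and 190 to 413 in the others, so the ranges overlapped. Without Eomes, which MC38 cells also had, the sums were 118 to 535 and 69.4 to 299. Nkg7, a granule protein of NK and T cells, had a log2 difference of 2.13 over both days (standard error 0.52, adjusted p = 0.0870 from limma), and Il2rb, a shared chain of the interleukin receptors of these cells, one of 2.00 (standard error 0.53, adjusted p = 0.128). At day 23 the 9 markers ran from high to low, with Il2rb at 2.70, Nkg7 at 2.69, Xcl1 at 1.82, Il18rap at 1.58 and Gzma at 1.31. Gzmb stood at 0.96, Txk at 0.74, Cd244 at −0.03 and Eomes at −0.27. The part of T cells in the receptor values was not tested. Keratinocyte markers also reached 2098 summed normalized counts in replicate 2 of wild-type day 23, against 231 to 700 in the other 5 wild-type tumors, and the part of skin in that piece was not tested.

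**Figure D4:**
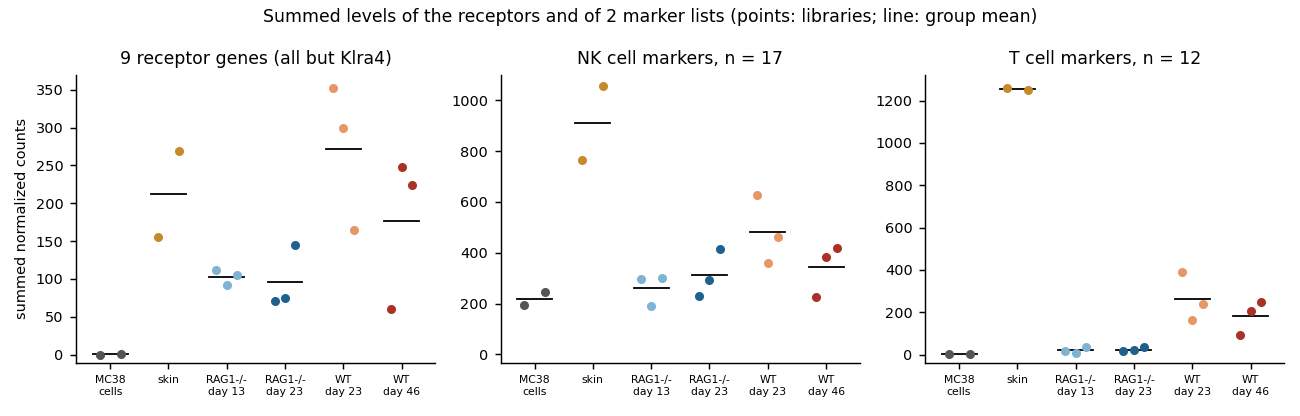
Summed normalized counts (linear y axes) of the 9 receptor genes other than Klra4, of 17 NK cell markers and of 12 T cell markers in each of the 16 libraries by group, with points for libraries and a line for the group mean. The T cell sums of the 6 wild-type tumors (91.9 to 391) lie above those of the tumors labelled RAG1-/- (7.78 to 35.2), while the NK cell sums overlap.

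From a list of ligand genes of these receptor families, 3 of 9 tested were called higher in wild-type tumors over both days and 0 at day 23. Of all genes, 0.57% were called higher over both days and 0.278% were called at day 23. They were H2-K1 (log2 difference 1.11, standard error 0.15, adjusted p = 0.00206 from limma), H2-D1 (0.98, standard error 0.14, adjusted p = 0.00431) and B2m (0.82, standard error 0.15, adjusted p = 0.0124). These encode classical class I chains and their light chain, which receptors of the Ly49 family bind. Whether Ly49D, the Ly49 receptor among the members, binds the chains of this strain is not given in the sources used here. H2-T23, the gene of Qa-1, had 107 ± 49.0 normalized counts in wild-type tumors and 78.8 ± 31.2 in tumors labelled RAG1-/- (SD, n = 6 each; log2 difference 0.43, adjusted p = 0.696 from limma). The NKG2D ligands Raet1e and Ulbp1 had 50.5 to 71.4 and 27.4 to 28.2 normalized counts in MC38 cells, so the ligands of NKG2D were read in the cells that had no reads of the receptor. Raet1e had a log2 difference between the tumor groups of 0.52 (adjusted p = 0.508 from limma) and Ulbp1 one of −0.15 (adjusted p = 0.920). Clec2d, the ligand gene of NKR-P1B, had 10.05 to 36.4 normalized counts in wild-type tumors and 7.78 to 57.5 in the others. Of 12 tested adaptor and signaling genes 0 were called at either comparison, with 2820 ± 647 normalized counts of Tyrobp in wild-type tumors and 2550 ± 424 in the others (SD, n = 6 each), a level shared with macrophages, which use the same adaptor. Of 6 other lectin-like receptor genes tested 0 were called. Klra17 had 0.977 to 50.9 normalized counts in wild-type tumors and 0 to 18.9 in the others (log2 difference over both days 1.74, adjusted p = 0.330 from limma).

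Time gave no call. From day 23 to day 46 in wild-type hosts, from day 13 to day 23 in hosts labelled RAG1-/-, and for the difference of these changes, limma called 0 of the 6 tested members, and 0% of the 14746 genes tested were called in each. The members at an unadjusted p under 0.05 numbered 1, 1 and 0 of 6, beside 8.55%, 11.7% and 8.67% of all genes tested, and edgeR and DESeq2 called 0 members in all of these comparisons. Among the members past the filter, Klrd1 had the largest change with time in wild-type tumors, with 44.7 normalized counts on average at day 23 and 17.9 at day 46 (log2 difference −1.45, standard error 0.62, adjusted p = 0.548 from limma). Without replicate 1 of day 46 this was −0.83 (adjusted p = 0.577). Klrk1 had the largest of these members in tumors labelled RAG1-/-, with 12.0 at day 13 and 4.04 at day 23 (log2 difference −1.45, standard error 0.66, adjusted p = 0.417 from limma).

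Normal skin held the receptors too. Klrk1 had 38.8 and 95.6 normalized counts in skin, Klrd1 25.5 and 68.8, Klrb1b 61.6 and 59.9, and Klrc1 10.7 and 14.0. Replicate 2, the library that carried genes of MC38 cells, had the higher values of Klrk1, Klrd1 and Klrc1. MC38 cells themselves had 0 reads of these genes in both libraries. Of the 5 tested members limma called 1 lower in tumors labelled RAG1-/- than in skin, where 35.9% of the 16259 genes tested were called lower. It was Klrk1, with a log2 difference of −3.05 (standard error 0.66, adjusted p = 0.00113), and it passed in all 18 alternatives (highest adjusted p 0.0417, without replicate 2 of skin). The skin was of wild-type mice, so host genotype, tissue and sex cannot be told apart in this comparison. In wild-type tumors limma called 0 of the 5, where 57% of the genes tested were called. At an unadjusted p under 0.05 there were 0 of the 5, where 61.4% of the genes tested were, and edgeR and DESeq2 called 0. Klrk1 stood at −1.28 there (standard error 0.66, adjusted p = 0.114 from limma) and was called lower than skin without replicate 1 of wild-type day 23 (−1.64, adjusted p = 0.0265). MC38 cells had 0 reads of the 3 members tested against skin, which passed the filter through skin alone, so that their being called lower was fixed by the filter. Of the 16780 genes tested 41.2% were called lower, from which nothing is read about these 3. Skin stood at least 24.4-fold above MC38 cells for Klrk1, 22.1-fold for Klrb1b and 17.1-fold for Klrd1. Replicate 1 of skin alone gave bounds of 14.1-fold for Klrk1 and 9.26-fold for Klrd1. The scaling matters for comparisons with skin. The median log2 difference of all genes was −0.20 in tumors labelled RAG1-/-, −0.18 in wild-type tumors and −0.40 in MC38 cells, and rescaling to the same total moved it by 0.41, 0.41 and 0.43. The share of higher genes among those called went from 39.9% to 56.6%, from 40.0% to 57.6% and from 33.5% to 46.8%. T cell markers summed to 1252 and 1261 normalized counts in skin, above every tumor, and NK cell markers to 766 and 1058, and their part in the receptor levels of skin was not tested.

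The genes whose levels followed each receptor most closely over the 12 tumors, by Pearson's r of log2 values among 14746 genes, are given as a description, since tumors of one group share their host and day. Klrc1 went with Dnase1l3 (r = 0.958), Bcl11b (0.952), a factor of T cell identity, and D17Wsu92e (0.950). Klrk1 went with Col5a1 (r = 0.941), Tgm2 (0.920) and Itgb5 (0.919), genes of the extracellular matrix and its contacts. Klrb1b went with Sp110 (r = 0.937), Fdft1 and Hvcn1, and Klrd1 with Ccdc159 (0.891), H2-M3 and the granzyme gene Gzmb (0.873). Klre1 went with 2900089D17Rik (r = 0.905), Apod and Col3a1, and Klrg1 with Inpp4b (0.857), Cep97 and Pcdhgb2. Klra4 went with Abhd17b (r = 0.913) and Eps8 (0.907) over the tumors, and with Gm13261 (0.993), RP24-490H13.4 and Gm13154 over all 16 libraries, which differ in tissue. Among the receptors themselves, Klrc1 had r = 0.839 with Klrb1b and 0.815 with Klrk1, Klrd1 had 0.811 with Klre1, and Klra4 had between −0.567 and −0.080 with the other 6.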

How the data were processed

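RNA was measured in 16 libraries of cells, skin and tumors. RNA was made into QuantSeq 3′ libraries and read on the Ion Proton. The authors trimmed adapters and poor bases (Cutadapt, Trimmomatic), aligned to mm10 with STAR and the unmapped rest with Bowtie2, removed ribosomal reads, kept the primary alignment of multiply mapped reads, counted genes with HTSeq and divided by DESeq2 size factors. The deposited signal is this normalized count. Strand setting and annotation version are not given in the sources used here. All values (100%) were whole multiples, within a tolerance of 0.01, of the value of 1 read, so reads were recovered, and they gave the depth. Replicates are separate samples by their labels. Nothing says that MC38 and skin replicates came from separate cultures or animals, so p-values there measure the spread between libraries.

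limma 3.58.1 (R 4.3.3) was run, with its trend option, on log2(normalized count + 1) of genes whose mean reached 5 over the libraries fitted, two-sided, Benjamini-Hochberg adjusted over all genes, threshold 0.05. The 12 tumors were fitted together in 4 groups, with the MC38 or skin libraries added for comparisons with these. The comparison over both days took the mean of the groups of each genotype, whose days differ. Fold changes on this scale understate those of low genes. The planned test for the deposited unit was used, with edgeR 4.0.16 and DESeq2 1.42.0 on recovered reads among the alternatives. Scripts were tested on simulated data. Members under the filter were compared with exact permutation tests. The other members but Klrc1 had these tests beside limma. The p-values of the exact tests are unadjusted. Standard errors and SDs measure the spread between libraries, and the floors cover counting error only.

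The members and lists were chosen with earlier results of these data known. The named genes are the 10 members, list genes past the threshold between the genotypes (at most 6 a list), Rag1, and the 3 genes most correlated with each member that passed the filter, of which 1 is not reported here. Other list genes named in the text were chosen after their values were seen. B cell markers gave 1 call of 3 at each comparison of the genotypes (Igkc), macrophage markers 0 of 8, keratinocyte markers 0 of 7 and epithelial markers 0 of 2. A table with 6 columns, of antibody-treated tumors, was not used here because its column names match no label.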

Additional observations from a re-analysis of the deposited data

Results flagged for a closer look

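Each member was screened in the 6 wild-type tumors and in the 6 tumors labelled RAG1-/-, 20 groups in all, for a highest or lowest library whose gap to its nearest neighbour, as a share of the whole range, exceeded Dixon's critical value for 6 samples. For samples of 1 normal population chance alone picks about 1 in 20 such groups. The groups here pool 2 days and hold counts near the floor, so that rate need not hold. Of the 20 groups, 3 were picked. Klrk1 had 84.1 normalized counts in replicate 1 of wild-type day 23, where the other 5 wild-type tumors had at most 25.5 (gap 0.832 of the range). Klrg1 had 28.2 in replicate 2 of wild-type day 46, where the others had at most 8.16 (0.711 of the range). Klre1 had 1.95 in replicate 1 of wild-type day 46, where the others had 7.92 to 9.59 (0.782 of the range).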

How the results depend on the processing

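Of 428 values recomputed under an alternative, 412 kept their direction and their side of the threshold or, for counts, stayed within 1.5 times, 1 was weaker, 15 were stronger and 0 turned direction. Among the fits of single members outside these values, 37 turned direction, in comparisons where the reported adjusted p was at least 0.394. DESeq2 on the recovered reads called 1 member between the genotypes at day 23, 2 over both days and 5 between tumors labelled RAG1-/- and MC38 cells, and a pseudocount of 0.1 gave 5 in the last. With a mean of at least 20 required, which takes out low genes, 2 were called between wild-type tumors and MC38 cells. With no filter, 6 were called between MC38 cells and skin, since genes under the filter were then tested and Klre1, Klrg1 and Ncr1 were called. With each replicate left out in turn, the calls ran from 0 to 1 between the genotypes over both days, from 3 to 5 for tumors labelled RAG1-/- against MC38 cells, from 0 to 1 for wild-type tumors against skin, and from 0 to 1 for the exact tests of members under the filter. The cause of the moves other than those from the filter was not tested. Between the genotypes at day 23, limma called 34 of all genes up and 7 down in wild-type hosts, against 158 and 81 by DESeq2 and 17 and 5 by edgeR, and over both days 84 and 21 against 194 and 89 by DESeq2. In the time comparisons, with 0 by limma, DESeq2 called 25 up and 16 down in wild-type hosts, 90 and 116 in hosts labelled RAG1-/-, and 36 and 22 for the difference of the changes. Same-numbered tumors did not deviate together (correlation of deviations −0.236 to 0.246 over 18 pairs, and −0.213 to 0.201 over 36 other pairs). The numbers were therefore not used to pair samples, though a correlation over all genes cannot exclude that same-numbered tumors were handled together. With a replicate block the calls were 0 in the 5 comparisons among tumors, 3 and 4 against MC38 cells, 1 and 0 for tumors labelled RAG1-/- and wild-type tumors against skin, and 3 for MC38 cells against skin. A fit with only the groups of the contrast is the same fit as the one reported for both days and for the difference of the time changes. Depth limits Klrb1c, Klrc2 and Ncr1 most, with 5 to 43 reads over 6 tumors.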
